A study of Mus musculus with 12 samples.

Results

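The genes described here are 8 genes of early lymphoid priming, Flt3, Satb1, Mef2c, Notch1, Il7r, Dntt, Ccr9 and Il12a, taken by symbol from the deposited count tables, which hold 19463 genes besides the spike-in controls. All 8 were found in the tables. They were measured by SORT-seq, a plate-based single-cell method that counts the 3′ ends of mRNA molecules by random barcodes (UMIs), in LSK cells, the Lin- Sca-1+ Kit+ progenitors of blood, sorted from the fetal liver of C57BL/6J mice at embryonic day 18.5. The double mutant, homozygous for both Pcna K164R and the Rev1 knockout, had 4 plates. The Rev1 knockout alone had 3 plates, the Pcna K164R homozygote 2 and the wild type (WT) 3. Rev1 is a DNA polymerase that copies damaged template, and the K164R change in Pcna, the sliding clamp of replication, removes a lysine that is modified with ubiquitin when forks meet damage. The labels list no allele or agent carried by all 4 groups and no promoter or Cre. Nothing in the labels says that plates of a genotype came from separate animals, so the p-values are about variation among plates, whose biological and technical parts are not known.

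Lymphoid priming is the low-level expression of lymphoid genes in multipotent progenitors before they commit. Flt3, a receptor tyrosine kinase for the cytokine Flt3 ligand, marks the multipotent progenitors that have left the stem cell state, and Flt3-deficient mice make few early lymphoid progenitors. Satb1, a chromatin organiser, and Mef2c, a MADS-box transcription factor, act in progenitors to favour lymphoid over other fates. Notch1 is the receptor whose signal drives T-cell commitment. Il7r encodes the alpha chain of the interleukin 7 receptor, Ccr9 a chemokine receptor used in homing to the thymus, and Dntt terminal transferase, which adds bases at V(D)J junctions. Il12a encodes a subunit shared by the cytokines interleukin 12 and interleukin 35.

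Of 4608 wells, 3088 held at least 1000 UMIs outside the spike-ins and were kept, from 82 to 381 per plate. Double mutant replicate 3 was thin: 82 of its wells were kept, at a median depth of 1730 UMIs, against medians of 7537 to 34853 on the other plates. All 12 plates use the same set of well barcodes, and each library was its own. Of the sort markers, Kit averaged 205 ± 57.1 CPM (UMI counts scaled by TMM library size; SD) in the 4 double mutant plates and 407 ± 91.2 CPM in the 3 WT plates. Ly6a, which encodes Sca-1, averaged 18.5 ± 13.2 CPM in the double mutant and 66.1 ± 9.69 CPM in WT (log2 fold change -1.47; edgeR adjusted p = 0.0159), and was at 0 in the thin double mutant replicate 3. Rev1 itself checks the labels. It stood at 1.29, 2.48 and 4.70 CPM before TMM scaling in double mutant replicates 1, 2 and 3, with 1 UMI in replicate 3, at 1.35 to 6.00 CPM in the Rev1 knockout, at 11.3 and 7.86 CPM in Pcna K164R, whose Rev1 is wild type, and at 11.0 to 20.5 CPM in WT. The library labelled double mutant replicate 4 had 13.7 CPM of Rev1 (33 UMIs), inside the WT range, which goes against its label. The member tests and list counts below are therefore also given without it. Without that library none of the 5 LSK marker genes tested, Kit and Ly6a among them, was called in the double mutant against WT. Their median log2 fold change was then -0.73. Whether the counted 3′ ends of Rev1 lie inside its deletion is not known here. The other plates labelled as lacking Rev1 had 1.29 to 6.00 CPM, and those with wild-type Rev1 7.86 to 20.5 CPM.

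The 4 members on which the results turn are Flt3, Satb1, Mef2c and Notch1. Flt3 lies on chromosome 5 (147330741 to 147400489, minus strand), Satb1 on chromosome 17 (51736187 to 51833290, minus strand), Mef2c on chromosome 13 (83504034 to 83667080, plus strand) and Notch1 on chromosome 2 (26457903 to 26516663, minus strand), all protein-coding genes in GRCm38 (GENCODE). The 250 bases upstream of the most upstream RefSeq start of each (GRCm38.p6) are shown, 5′ to 3′ on the gene's strand, because these 4 genes moved together. The Notch1 window lies inside the longer GENCODE gene. Capitals mark GAGGAA or its complement on the other strand, TTCCTC, the core bound by ETS-family factors such as the lymphoid and myeloid regulator PU.1. The Satb1, Mef2c and Notch1 windows each hold 1 match and the Flt3 window none.
Flt3 (chr5:147400490-147400739, minus strand): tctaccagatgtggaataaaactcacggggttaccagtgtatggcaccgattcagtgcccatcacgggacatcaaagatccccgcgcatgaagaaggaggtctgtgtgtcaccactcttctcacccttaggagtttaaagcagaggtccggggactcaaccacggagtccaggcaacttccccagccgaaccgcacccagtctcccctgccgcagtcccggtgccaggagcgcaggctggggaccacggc
Satb1 (chr17:51833291-51833540, minus strand): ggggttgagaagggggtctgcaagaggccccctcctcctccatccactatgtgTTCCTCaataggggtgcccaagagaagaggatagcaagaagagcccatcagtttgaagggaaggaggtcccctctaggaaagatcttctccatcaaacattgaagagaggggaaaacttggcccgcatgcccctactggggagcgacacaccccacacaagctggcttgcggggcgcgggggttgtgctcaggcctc
Mef2c (chr13:83503784-83504033, plus strand): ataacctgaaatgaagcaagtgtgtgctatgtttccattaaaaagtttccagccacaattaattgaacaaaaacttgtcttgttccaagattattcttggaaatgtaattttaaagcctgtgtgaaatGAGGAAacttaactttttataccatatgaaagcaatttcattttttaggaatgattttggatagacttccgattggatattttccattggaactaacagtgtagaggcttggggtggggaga
Notch1 (chr2:26503823-26504072, minus strand): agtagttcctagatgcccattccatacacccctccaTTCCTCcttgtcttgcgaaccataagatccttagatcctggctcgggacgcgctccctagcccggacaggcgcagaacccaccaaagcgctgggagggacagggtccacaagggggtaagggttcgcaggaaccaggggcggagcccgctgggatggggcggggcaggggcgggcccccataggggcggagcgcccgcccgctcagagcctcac
The motifs were read on both strands. Over all 8 members, 3 windows held the ETS core, against 23.1% of 27025 promoter windows of the same length, 6 held an E-box (CANNTG), against 66.1%, and 1 held a GATA core (AGATAA or its complement), against 10.2%. No member window held the RUNX core TGTGGT (14.2% of windows), and 1, that of Il12a, held TGGGAA, the core shared by Rbpj and Ikaros (21.5%). A match is a description of the letters and no evidence of binding.

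In the double mutant, Flt3, Satb1, Mef2c and Notch1 were all lower than in WT. Their fitted levels in the double mutant were 22.2% of WT for Flt3, 21.3% for Satb1, 38.7% for Notch1 and 50.8% for Mef2c. These 4 are 4 of the 7 members that passed the filter on low counts, and Dntt was too sparse to test. Of 12221 genes tested, 2.41% were called lower in the double mutant against WT. The median log2 fold change was -1.37 over the 7 members and -0.04 over all genes. The members were chosen with earlier results of these data known, so this contrast with all genes is a description. Comparing the double mutant with WT asks what losing both routes of damage tolerance does to these progenitors. In these sums over a plate, fewer cells that express a gene and less RNA per cell cannot be told apart.

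Flt3 stood at 78.6, 52.0, 26.0 and 42.2 TMM-normalised CPM in double mutant replicates 1 to 4 and at 209, 259 and 237 CPM in WT replicates 1 to 3. The 2 groups did not overlap, and the highest double mutant plate was well under the lowest WT plate. Flt3 fell, with a fitted log2 difference of -2.17 ± 0.27 (SE; edgeR adjusted p = 0.00368), the tenth smallest p of all genes tested. Double mutant replicate 3 had a TMM factor of 0.549, against 0.973 to 1.11 on the other plates, which raises its CPM of every member. The Flt3 difference rested on 3 Flt3 UMIs in double mutant replicate 3 and on 104 to 1590 in the other double mutant and WT plates. In session 1 alone it was -1.67 (edgeR adjusted p = 0.100) and in session 3 alone -2.54 (edgeR adjusted p = 0.00504), the sessions being the sort dates in the labels.

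Satb1 had 63.6, 46.0, 43.4 and 16.6 CPM in double mutant replicates 1 to 4 and 153, 174 and 173 CPM in WT. The lowest of all 12 plates was the library labelled double mutant replicate 4. The fitted difference was -2.23 ± 0.36 on the log2 scale (edgeR adjusted p = 0.0106). In session 1 alone it was -1.47 (edgeR adjusted p = 0.117) and in session 3 alone -3.36 (edgeR adjusted p = 0.00352).

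Mef2c had 118, 109, 113 and 81.5 CPM in double mutant replicates 1 to 4 and 203, 199 and 191 CPM in WT. Plates of a genotype lay close together and the genotypes apart, though double mutant replicate 3 is the thin plate with the low TMM factor. The log2 fold change was -0.98 ± 0.19 (edgeR adjusted p = 0.0202), the smallest of the 4 called. It was -0.83 in session 1 alone (edgeR adjusted p = 0.155) and -1.24 in session 3 alone (edgeR adjusted p = 0.0117).

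Notch1 had 52.3, 35.0, 52.1 and 20.7 CPM in double mutant replicates 1 to 4 and 78.1, 96.8 and 92.9 CPM in WT. The double mutant plates were all lower, by the least for replicates 1 and 3. Replicate 3 is the thin plate with the low TMM factor, so its place beside replicate 1 is uncertain. The log2 fold change was -1.37 ± 0.29 (edgeR adjusted p = 0.0266). It was -0.83 in session 1 alone (edgeR adjusted p = 0.209) and -2.18 in session 3 alone (edgeR adjusted p = 0.00662). These 4 genes had every double mutant plate below every WT plate, as did 11.0% of all genes tested.

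The calls depended on single libraries. Without the library labelled double mutant replicate 4 none of the 4 passed: Flt3 was at -1.93 (edgeR adjusted p = 0.0706), Satb1 at -1.52 (0.0803), Notch1 at -0.85 (0.241) and Mef2c at -0.77 (0.209). Over all genes that fit called 12 in place of 514, with 0.0823% of 12157 called lower and 0.0165% higher. Without double mutant replicate 2 Flt3 alone stayed called, Satb1 being at -2.22 (edgeR adjusted p = 0.0519). Without WT replicate 2 or 3, Mef2c and Notch1 missed the threshold, and without WT replicate 1 Mef2c did (edgeR adjusted p = 0.0529). With double mutant replicates 3 and 4 both left out, a choice made after seeing the data, Flt3 was at -1.68 (edgeR adjusted p = 0.0296) and Satb1 at -1.47 (0.0386). With flow cell in place of sort date none of the 4 passed, Flt3 being at -1.80 (edgeR adjusted p = 0.247). No flow cell carried both a double mutant and a WT plate, so flow cell and genotype cannot be told apart directly.

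**Figure D1:**
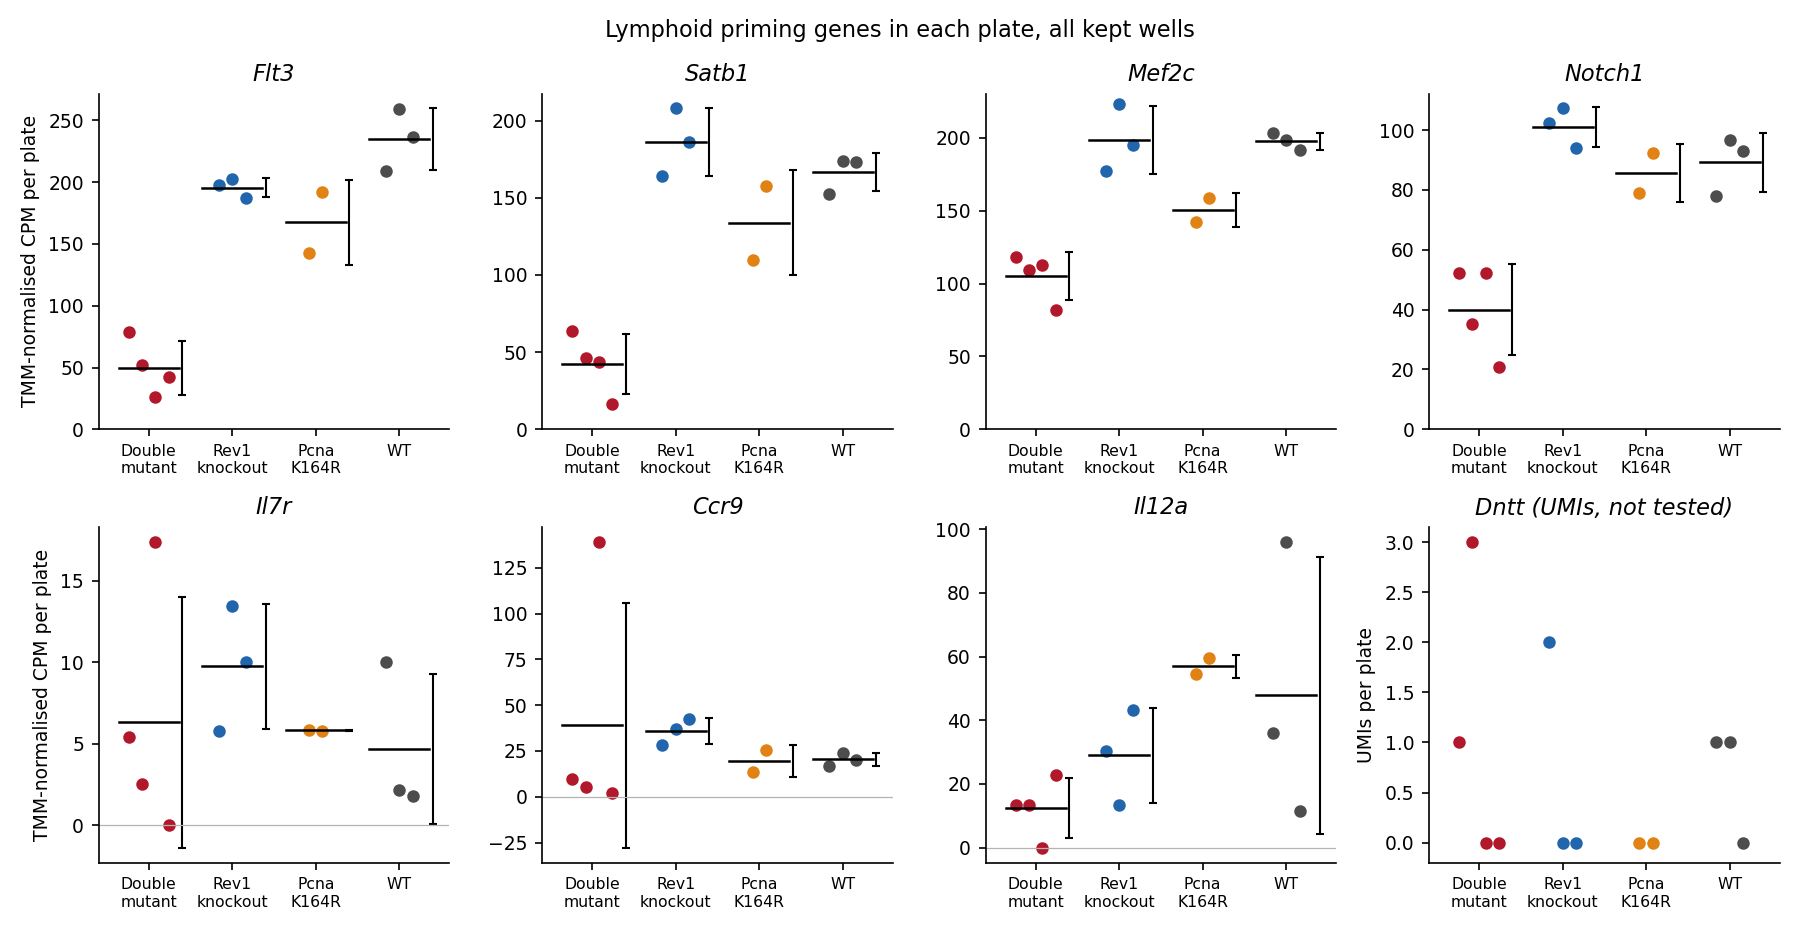
TMM-normalised CPM of 7 members in each plate, by genotype, and UMIs of Dntt; points are plates, lines are means and the bar beside each is ± 1 SD (n = 4 double mutant, 3 Rev1 knockout, 2 Pcna K164R, 3 WT). Flt3, Satb1, Mef2c and Notch1 were lower in all 4 double mutant plates than in all 3 WT plates, while Ccr9 was high in double mutant replicate 3 alone, at 139 CPM.

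The other 4 members were sparse, and none was called in the double mutant against WT in the main fit with all plates. Ccr9 had 9.66, 5.41, 139 and 2.03 CPM in double mutant replicates 1 to 4 and 17.0, 24.1 and 20.3 CPM in WT. Replicate 3 stood far above every other plate, on 16 UMIs in 11 wells, and the other 3 were below all WT plates. Ccr9 differed by -0.97 ± 0.77 on the log2 scale (edgeR adjusted p = 0.494), and without double mutant replicate 3 it was -1.80 (edgeR adjusted p = 0.0231).

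Il12a had 13.5, 13.2, 0 and 22.7 CPM in double mutant replicates 1 to 4 and 35.8, 95.9 and 11.6 CPM in WT. The groups overlapped, and WT itself ranged widely, replicates 2 and 3 of 1 sort date lying at opposite ends. Il12a differed by -1.42 ± 0.60 on the log2 scale (edgeR adjusted p = 0.185). It was called lower under 1 of the 12 alternatives other than single leave-outs.

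Il7r had 5.40, 2.50, 17.4 and 0 CPM in the double mutant and 10.01, 2.19 and 1.82 CPM in WT, from at most 76 UMIs a plate. The groups overlapped. The fitted difference, which allows for sort session, was -1.25 ± 0.75 (edgeR adjusted p = 0.351). The mean CPM was higher in the double mutant, at 6.31 ± 7.69 against 4.67 ± 4.63 in WT (SD). This order rests on the 17.4 CPM of double mutant replicate 3, the thin plate. Without double mutant replicate 3 the fitted difference was -1.58 (edgeR adjusted p = 0.0496). Dntt gave 1, 3, 0 and 0 UMIs in the double mutant plates and 1, 1 and 0 in WT. The Rev1 knockout added 2 in replicate 1, and no other plate held any. At this depth no difference in Dntt was detectable.

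Wells were then read for how Flt3 was spread over cells. Each kept well was thinned to 1000 UMIs, so that all had equal depth. A Flt3 UMI was then found in 5.88, 5.97, 2.44 and 6.54% of wells in double mutant replicates 1 to 4 and in 20.7, 27.2 and 21.6% in WT. The means were 5.21 ± 1.87% in the double mutant and 23.2 ± 3.51% in WT (SD, n = 4 and 3), and no plates overlapped. The difference was -17.99 percentage points (two-sided exact permutation test over plates, p = 0.0286, the smallest it can give for 4 against 3). This test made no allowance for sort session, over which the genotypes were unbalanced. The share was 18.3, 18.8 and 20.2% in the Rev1 knockout and 14.97 and 20.4% in Pcna K164R. Without thinning the mean was 34.6% in the double mutant and 74.7% in WT (exact permutation p = 0.0857), double mutant replicate 3 being the shallowest.

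At 5000 UMIs a well, a depth added after seeing the data for this purpose, Flt3 was detected in 25.6% of 328 wells, 22.7% of 238 and 22.2% of 81 in double mutant replicates 1, 2 and 4. The exact (Clopper-Pearson) 95% intervals, which cover counting error only, were within 13.7 to 32.8%. Replicate 3 had 9 such wells and none with Flt3, which allows a share of up to 33.3%, taken as 3 counts of the total and not as an exact interval. The WT plates had Flt3 in 57.9, 63.8 and 64.3% of wells. Where Flt3 was detected, the mean was 1.5, 1.54 and 1.39 UMIs per well in double mutant replicates 1, 2 and 4 and 2.08, 2.33 and 2.83 in WT. Both the share of wells and the UMIs in a positive well were lower in these double mutant plates. At a fixed depth a lower Flt3 level per cell lowers both, so they are not separate observations. Whether fewer cells with Flt3 or less Flt3 RNA per cell made the difference was not tested. The Rev1 knockout had 1.98, 2.07 and 2.26 UMIs per positive well and Pcna K164R 1.79 and 2.13.

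Erythroid wells served as the level of Flt3 where it should be absent. In wells with at least 3 UMIs of Klf1, Rhd and Rhag, genes of the red cell lineage, Flt3 was detected in 4.52% of the 155 such wells from double mutant plates 1, 2 and 4 and in 2.50% of the 40 such WT wells. In wells with none of those UMIs it was detected in 27.4 to 35.1% of double mutant wells and 64.1 to 68.5% of WT wells, at the same 5000 UMIs. Before thinning, the median depth of kept erythroid wells was 34462 to 50229 UMIs in these double mutant plates and 22454 to 34369 in WT. That of kept wells with none before thinning was 12402 to 25338 in these double mutant plates and 7450 to 12814 in WT. These are not the same sets of wells as those of the Flt3 shares, which were chosen after thinning to 5000 UMIs. In double mutant replicate 1, 163 kept wells had none before thinning, and 226 of the thinned wells had none.

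**Figure D2:**
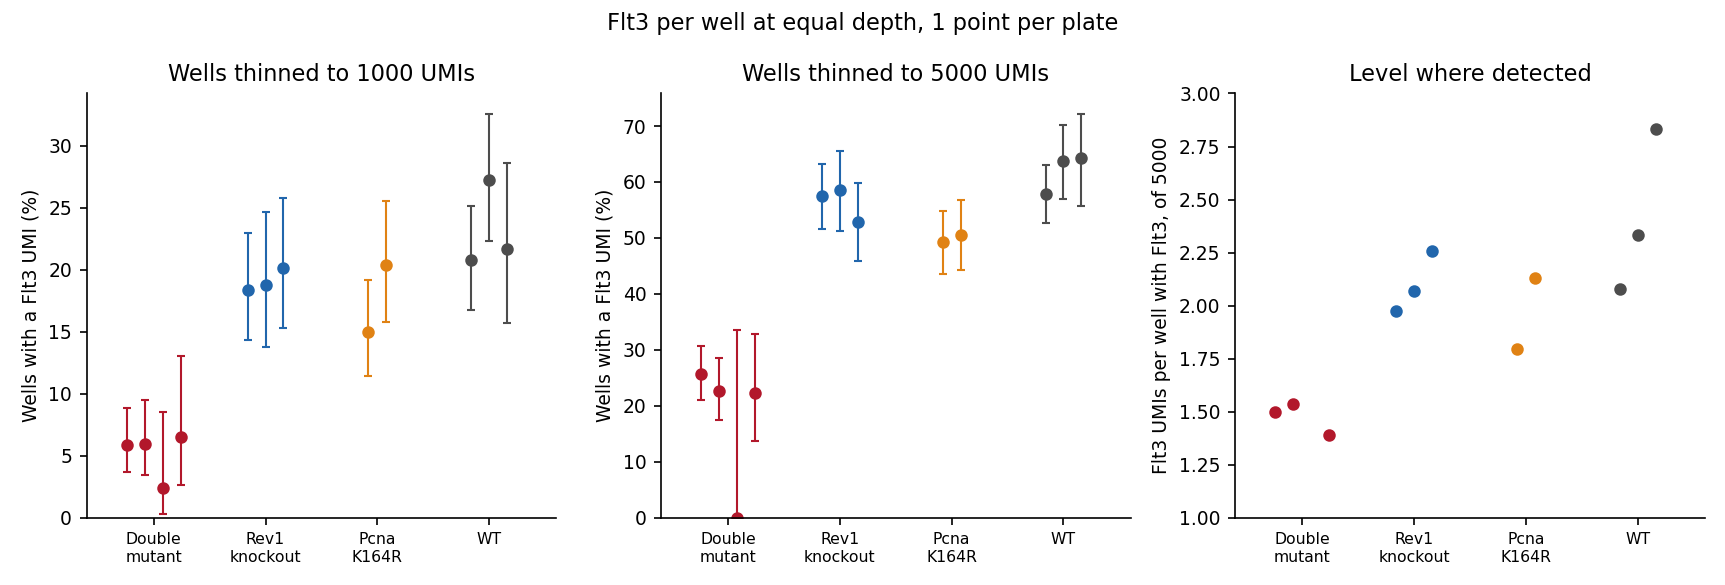
Percentage of wells with a Flt3 UMI after thinning to 1000 and to 5000 UMIs a well, and mean Flt3 UMIs in the wells with Flt3 at 5000 UMIs; points are plates and bars are exact 95% intervals for counting error. At 1000 UMIs the double mutant plates lie at 2.44 to 6.54% and the WT plates at 20.7 to 27.2%; double mutant replicate 3 has 9 wells at 5000 UMIs and no point in the last panel.

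The shares of the other members followed the plate sums. At 5000 UMIs Satb1 was detected in 18.9, 16.4 and 7.41% of wells from double mutant replicates 1, 2 and 4 and in 44.6, 49.5 and 57.1% in WT. Mef2c was detected in 39.3, 42.9 and 25.9% of wells in those double mutant plates and in 65.1, 60.1 and 67.9% in WT. Notch1 was detected in 20.1, 18.5 and 13.6% in those double mutant plates and in 34.9, 32.1 and 37.1% in WT. Il12a was detected in 6.10, 6.30 and 11.1% in those double mutant plates and in 14.4, 28.4 and 8.57% in WT, where the genotypes overlapped. Wells with no UMI of any of the 8 genes made up 39.9, 39.1 and 55.6% of wells in those double mutant plates and 12.7, 7.80 and 7.86% in WT. Wells with at least 3 of the 8 genes made up 12.8, 15.1 and 8.64% in the double mutant and 44.04, 46.8 and 53.6% in WT.

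Erythroid genes moved with these results. Klf1, the erythroid transcription factor, stood at 17.4 to 216 CPM in the double mutant and 11.3 to 72.7 CPM in WT, and Rhd and Rhag, of the Rh membrane complex, at 43.4 to 128 and 104 to 248 CPM in the double mutant and at 8.44 to 51.9 and 27.5 to 100 CPM in WT. Of 18 erythroid markers tested, 8 were called higher in the double mutant and none lower, where 1.8% of all genes were called higher. Without the library labelled double mutant replicate 4 none of the 18 was called in either direction, and their median log2 fold change was 1.297, against 1.86 with it. Their summed level was 1876, 2346, 653 and 3254 CPM in double mutant replicates 1 to 4 and 884 to 1409 CPM in WT. Wells with no UMI of Klf1, Rhd and Rhag were therefore summed on their own. Their share of the kept wells was 45.7, 29.1, 82.9 and 35.5% in double mutant replicates 1 to 4 and 58.8, 92.5 and 83.6% in WT. In these wells the summed erythroid level was 391 to 666 CPM in the double mutant and 457 to 622 CPM in WT. A shallow well passes this choice more easily than a deep one.

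In the wells without erythroid UMIs, 2 of the 7 members tested, Flt3 and Satb1, were called lower in the double mutant against WT, where 0.299% of 11716 genes were. Flt3 had 111, 78.5, 22.0 and 103 CPM in double mutant replicates 1 to 4 and 268, 279 and 295 CPM in WT. The plates did not overlap, and the library labelled double mutant replicate 4 lay next to replicate 1. Flt3 changed here by -1.61 ± 0.25 on the log2 scale (edgeR adjusted p = 0.0146), a level 32.7% of WT. Satb1 had 86.0, 70.1, 44.1 and 52.3 CPM in the double mutant and 209, 187 and 203 CPM in WT. Its log2 fold change was -1.62 ± 0.22 (edgeR adjusted p = 0.00507), and again no plates overlapped. Within sort sessions neither passed: Flt3 was at -1.48 in session 1 alone (edgeR adjusted p = 0.135) and -1.46 in session 3 alone (0.0827), and Satb1 at -1.40 (0.145) and -1.88 (0.0649).

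Notch1 in these wells had 75.7, 49.2, 66.1 and 37.4 CPM in the double mutant and 112, 109 and 113 CPM in WT. The difference of -1.05 ± 0.24 did not pass (edgeR adjusted p = 0.079). Mef2c had 145, 146, 132 and 144 CPM in the double mutant and 252, 215 and 225 CPM in WT, a difference of -0.67 ± 0.18 (edgeR adjusted p = 0.121). Both had no overlap between plates, as did 8.44% of genes in these wells for a lower double mutant. Without the library labelled double mutant replicate 4, Flt3 was at -1.78 (edgeR adjusted p = 0.119) and Satb1 at -1.47 (0.109). Without double mutant replicate 2 Flt3 was at -1.54 (edgeR adjusted p = 0.0972), and without WT replicate 2 at -1.62 (0.0504). Without WT replicate 1, Flt3 was at -1.73 (edgeR adjusted p = 0.220) and Satb1 at -1.87 (0.105). With double mutant replicates 3 and 4 both left out, Flt3 was at -1.50 (edgeR adjusted p = 0.0327) and Satb1 at -1.43 (0.0356).

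Neither single mutant showed a called change of these genes against WT. The Rev1 knockout had Flt3 at 198, 202 and 187 CPM, Satb1 at 164.4, 208 and 186 CPM, Mef2c at 177, 223 and 195 CPM and Notch1 at 102, 107 and 93.9 CPM. Flt3 in these plates lay just below the lowest WT plate, and the other 3 overlapped WT. The share of all genes without overlap was not counted for the Rev1 knockout against WT. The log2 fold change of Flt3 was -0.14 ± 0.27 (edgeR adjusted p = 0.886; 2 SE either side give -0.69 to 0.41), and those of Satb1, Mef2c and Notch1 were 0.35 ± 0.34, 0.09 ± 0.20 and 0.20 ± 0.29. Il7r had 5.77, 13.5 and 9.999 CPM in the Rev1 knockout, overlapping WT, and differed by 2.29 ± 0.80 (edgeR adjusted p = 0.521). Ccr9 had 28.1, 37.0 and 42.6 CPM there, above all WT plates, and differed by 0.36 ± 0.73 (edgeR adjusted p = 0.894). None of 7 members passed in edgeR or DESeq2, with Il7r alone at an unadjusted p under 0.05, and edgeR called 0.0% of genes (none, with 1116 at an unadjusted p under 0.05).

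Pcna K164R had Flt3 at 143 and 192 CPM, Satb1 at 110 and 158 CPM, Mef2c at 142 and 158 CPM and Notch1 at 78.9 and 92.4 CPM. Flt3 and Mef2c were below all WT plates on both plates, and Satb1 and Notch1 overlapped WT. The share of all genes below WT in this way was not counted for Pcna K164R. Flt3 differed by -0.66 ± 0.33 (edgeR adjusted p = 1; 2 SE either side give -1.33 to 0.00), Satb1 by -0.73 ± 0.45, Mef2c by -0.53 ± 0.24 and Notch1 by -0.24 ± 0.36. None of 7 members passed in edgeR or DESeq2, with Mef2c alone at an unadjusted p under 0.05, and edgeR called 0.0% of genes (none, with 239 at an unadjusted p under 0.05). With 2 plates the intervals are wide, and a missed threshold does not show that the levels are alike.

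The double mutant was lower than the Rev1 knockout in the same 4 genes. Flt3 differed by -2.03 ± 0.31 (edgeR adjusted p = 0.0140), Satb1 by -2.58 ± 0.42 (0.0182), Mef2c by -1.07 ± 0.21 (0.0354) and Notch1 by -1.57 ± 0.34 (0.0420). These were 4 of 7 members, where 1.09% of genes were called lower. Il7r differed by -3.54 ± 0.96 and did not pass (edgeR adjusted p = 0.0821). This comparison shares its double mutant plates with the one against WT, so the 2 are not independent. Without Rev1 knockout replicate 2, or without the library labelled double mutant replicate 4, none passed. In wells without erythroid UMIs, Satb1 alone was called, at -1.95 ± 0.25 (edgeR adjusted p = 0.00865), where 0.290% of genes were called lower, and Flt3 was at -1.43 ± 0.30 (0.0560).

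Against Pcna K164R, no member passed in edgeR, which called 0.0409% of genes lower. Flt3 was at -1.50 ± 0.28 (edgeR adjusted p = 0.115; 2 SE either side give -2.06 to -0.95), Satb1 at -1.50 ± 0.36 (0.296), Notch1 at -1.13 ± 0.29 (0.322) and Mef2c at -0.45 ± 0.21 (0.527). Il12a had the largest difference, -2.09 ± 0.66 (edgeR adjusted p = 0.350). It had 54.4 and 59.5 CPM in Pcna K164R, above all double mutant plates, an order that was not counted over all genes. Flt3, Satb1, Notch1 and Il12a had an unadjusted p under 0.05, and DESeq2 called 2 members. The share of all genes that DESeq2 called is not given here, so its counts against Pcna K164R have no background beside them. Without the library labelled double mutant replicate 4, Flt3 was at -1.43 (edgeR adjusted p = 0.228) and Satb1 at -1.30 (0.201). In wells without erythroid UMIs, where edgeR called 0.0171% of genes lower, Flt3 was at -1.22 ± 0.27 and Satb1 at -1.20 ± 0.23, and none passed (edgeR; 4 at an unadjusted p under 0.05, and 2 by DESeq2).

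The interaction term asks whether the double mutant differs from the sum of both single effects. It was negative for all 7 members tested, at -1.85 ± 0.47 for Satb1 (edgeR adjusted p = 0.384), -1.36 ± 0.37 for Flt3 (0.436), -1.33 ± 0.39 for Notch1 (0.521) and -0.54 ± 0.27 for Mef2c (0.974). For Il7r it was -2.81 ± 1.03 (edgeR adjusted p = 0.736). Leaving out the library labelled double mutant replicate 4 gave -1.51 for Satb1 (edgeR adjusted p = 0.359) and -1.24 for Flt3 (0.658). None passed in edgeR or DESeq2, with 4 at an unadjusted p under 0.05, and edgeR called 0.0% of genes (none, with 640 at an unadjusted p under 0.05). In wells without erythroid UMIs the term was -1.54 ± 0.30 for Satb1 (edgeR adjusted p = 0.186) and -1.04 ± 0.36 for Flt3 (0.840). In those wells edgeR called 0.00854% of genes and no member. DESeq2 called 1 member there, and its share over all genes is not given here. These data therefore do not separate an excess over the sum of the single effects from the spread between plates after adjustment over all genes.

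**Figure D3:**
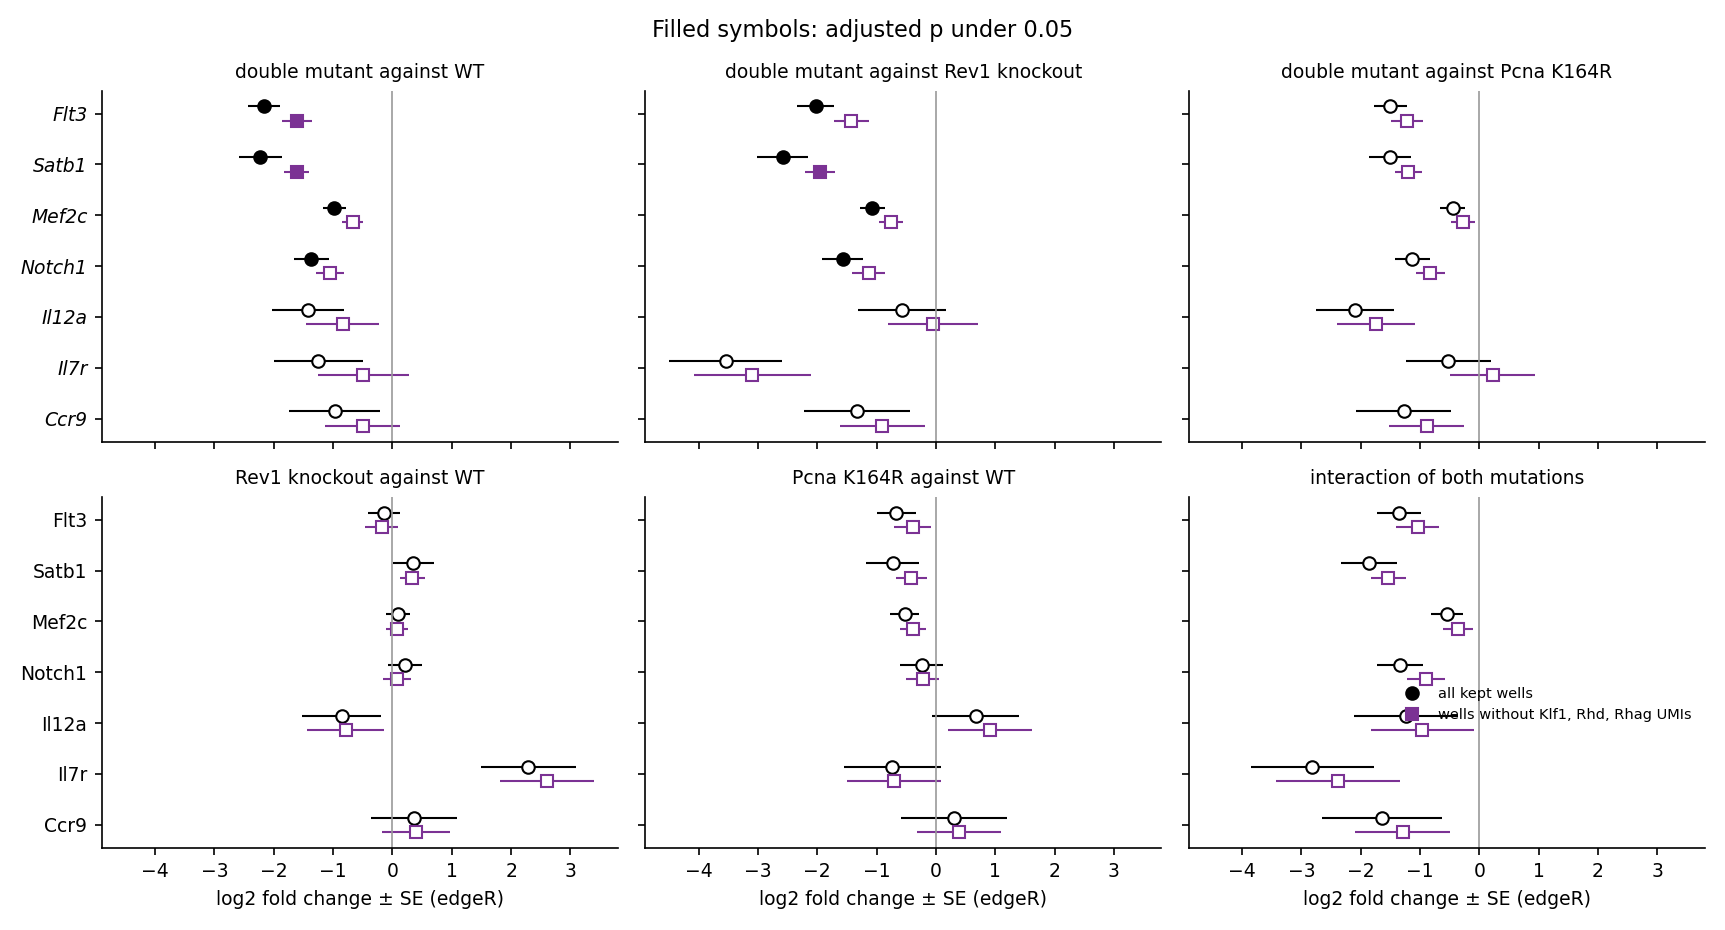
Log2 fold changes with SE (edgeR) of the 7 members tested, in 6 panels for the 5 pairs of genotypes and the interaction, in all kept wells (circles) and in wells without Klf1, Rhd and Rhag UMIs (squares); filled symbols passed an adjusted p of 0.05. In the double mutant against WT, 4 circles and 2 squares are filled, and in both single mutants against WT none.

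Within a plate at 5000 UMIs, wells with Flt3 more often held most of the other priming genes. At 5000 UMIs, over the 11 plates other than double mutant replicate 3, the share of wells with Satb1, Mef2c and Il12a was higher among wells with Flt3 than among wells without it on all 11 plates, and that of Notch1 and Ccr9 on 10. Il7r was higher on 4 and Dntt on 1. At 1000 UMIs, the depth planned for this reading, the order did not hold throughout. There Satb1 was in a mean of 3.67% of double mutant wells with Flt3 and 4.04% of those without. Il12a was in 3.15% and 4.03% of such wells in the Rev1 knockout. The 1000-UMI means of Satb1 and Il12a in the other genotypes, and of Mef2c, Notch1 and Ccr9 in every genotype, were higher with Flt3. Wells of a plate share a library, so no test was made.

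Satb1 was detected in a mean of 24.4% of the double mutant wells with Flt3 and 10.9% of those without (n = 3 plates), against 56.9% and 40.1% in WT (n = 3). Mef2c was detected in 55.0% and 30.2% of such wells in the double mutant and 72.9% and 50.4% in WT, and Il12a in 16.3% and 5.28% in the double mutant and 22.1% and 8.99% in WT. By plate, Satb1 was in 38.1, 24.1 and 11.1% of wells with Flt3 in double mutant replicates 1, 2 and 4, a range that overlaps the 32.2 to 50.0% of WT wells without Flt3. Erythroid wells, with at least 3 UMIs of Klf1, Rhd and Rhag, made up 4.89% of wells with Flt3 and 34.5% of those without in the double mutant, and 0.159% and 11.1% in WT. Among wells without erythroid UMIs the share was still higher in wells with Flt3 on 11 of 11 plates for Il12a, on 10 for Satb1 and Ccr9 and on 9 for Mef2c and Notch1.

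**Figure D4:**
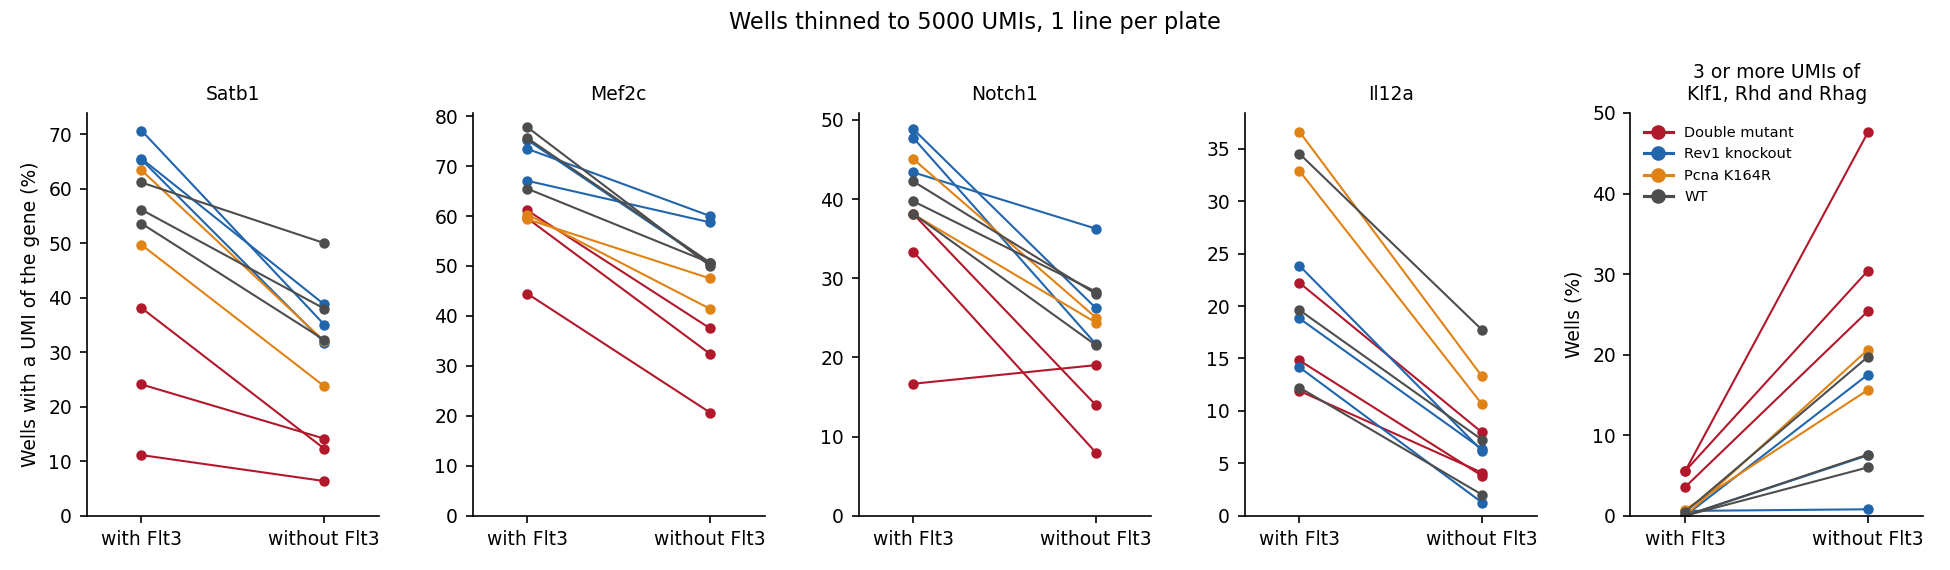
Percentage of wells with a UMI of Satb1, Mef2c, Notch1 and Il12a, and of wells with at least 3 UMIs of Klf1, Rhd and Rhag, among wells with Flt3 (left) and without Flt3 (right), at 5000 UMIs a well; each line is a plate, and double mutant replicate 3 is left out. Satb1, Mef2c and Il12a fall to the right on all 11 plates, and the erythroid share rises on all 11.

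The genes around these members were read in lists by pathway. Of 37 other genes of lymphoid specification tested, 6 fell in the double mutant against WT and none rose, where 2.41% of all genes fell, with a median log2 fold change of -0.69 (-0.04 over all genes). Without the library labelled double mutant replicate 4 none of them was called and the median was -0.37. Lax1, an adaptor of lymphocyte signalling, had 29.8 ± 7.87 CPM in the double mutant (SD, n = 4) and 68.0 ± 15.1 in WT (n = 3), which is -1.41 on the log2 scale (edgeR adjusted p = 0.0106). Cxcr4, the receptor for the niche chemokine Cxcl12, had 30.1 ± 8.43 CPM in the double mutant and 96.9 ± 15.8 CPM in WT (-1.65; edgeR adjusted p = 0.0106). Gfi1, a transcriptional repressor of progenitors, had 31.6 ± 11.4 CPM in the double mutant and 108 ± 30.4 CPM in WT (-1.59; edgeR adjusted p = 0.0178). The E protein gene Tcf4 had 101 ± 25.8 CPM in the double mutant and 204 ± 22.6 CPM in WT (-1.02; edgeR adjusted p = 0.0297). Without erythroid UMIs, 1 of 36 was called, Cxcr4, at -1.17 (edgeR adjusted p = 0.0317).

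Of 23 genes of Flt3 signalling, 1 fell and none rose, with a median of -0.33, and of 21 genes of the Notch pathway, 2 fell and none rose, with a median of -0.41. Of all genes, 2.41% fell. None of either list was called without the library labelled double mutant replicate 4, where the medians were -0.31 for Flt3 signalling and -0.36 for the Notch pathway. The Flt3 signalling gene was Pik3r1, the regulatory subunit of PI3 kinase, at 69.4 ± 7.44 CPM in the double mutant and 135 ± 9.71 in WT, which is -1.03 on the log2 scale (edgeR adjusted p = 0.0106). The Notch pathway genes were Maml3, a coactivator of the Notch complex, at -1.54 (edgeR adjusted p = 0.0208) and Dtx3l, of the Deltex ubiquitin ligases, at -1.36 (0.0287). None of the 9 genes of the interleukin 7 pathway, the 6 of the interleukin 12 family, the 7 relatives and partners of Mef2c and Satb1 or the 9 end-joining genes was called in edgeR, with medians of -0.29, -0.72, -0.28 and 0.15.

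The summed B-lineage markers stood at 243, 71.8, 254 and 17.1 CPM in double mutant replicates 1 to 4 and at 49.0 to 79.5 CPM in WT. Replicates 1 and 3 were above every WT plate and replicate 4 below. None of 8 tested was called, and their median log2 fold change was 1.14, or 2.49 in wells without erythroid UMIs, the opposite sign to the priming genes. Of 7 T and innate lymphoid markers tested, 1 rose in the double mutant and none fell, where 1.8% of all genes rose. It was Thy1, a surface protein of T cells and some progenitors, at 21.6 ± 15.3 CPM against 3.64 ± 1.25 in WT. Its log2 fold change was 2.09 (edgeR adjusted p = 0.0414), and 2.78 without the library labelled double mutant replicate 4 (0.0803). Of 16 stem cell markers 6 fell and none rose, where 2.41% of all genes fell. Hlf was among the 6, at -1.54 (edgeR adjusted p = 0.00455). Without that library 1 of the 16 fell, Meg3, a long noncoding RNA gene, where 0.0823% of all genes fell. Hlf was then at -1.41 (edgeR adjusted p = 0.0738). The share of these other populations in the members' differences was not tested.

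Over the 12 plates, with each session's mean removed, the genes whose log2 CPM followed Flt3 most closely were Trim21 (r = 0.988), Ccl4 (0.984), Wfdc17 (0.984), Exph5 (0.977) and Phf21a (0.974), out of 12221. Satb1 ranked 109 (r = 0.934), Notch1 217 (0.909) and Mef2c 218 (0.908), while Il12a, Ccr9 and Il7r ranked 1913, 4949 and 5060. These plates share genotypes and libraries, so r is a description. Ccl4, a chemokine gene, had 1.39 ± 1.39 CPM in the double mutant, 25.9 ± 5.70 in the Rev1 knockout, 15.3 ± 9.97 in Pcna K164R and 34.02 ± 3.64 in WT.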

How the data were processed

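Per the labels' protocols, LSK cells were sorted by FACS and processed by SORT-seq, and the authors deposited, for each of 12 plates, whole-number UMI counts, read counts and expected counts of transcripts corrected for repeated random barcodes. BWA 0.7.15 and GRCm38 (mm10) were used, per the submitters' processing notes, and the counting tool is not given in the sources used here. UMI counts were the main measure. Wells with at least 1000 UMIs outside ERCC rows were kept and summed per plate, again for wells with no Klf1, Rhd and Rhag UMI. No doublet caller was run. Kept depth was 212938 to 11617420 UMIs a plate, and on the thinnest plate 1 UMI is 4.70 CPM before scaling. Plates of a genotype differed by more than sampling noise.

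Tests used edgeR 4.0.16 (R 4.3.3), TMM, its default filter (12221 genes, or 11716 without erythroid UMIs) and the quasi-likelihood test on the 12 plates together, with terms for genotype and for sort session, Benjamini-Hochberg adjusted at 0.05. An SE is the log2 fold change divided by the square root of its F statistic. DESeq2 1.42.0, read counts, transcript counts (rounded), other scalings, thinning, sessions and leave-outs were alternatives, and leave-outs for the gene lists were added after seeing the data. The fitting was tested on simulated data. Flt3 shares used an exact permutation test over plates with no allowance for sort session (scipy 1.17.1). Promoters came from RefSeq, and all 8 members matched. Members and lists were chosen with earlier results of these data known. All 8 members are named, with up to 4 genes of each list by p in the double mutant against WT and 5 genes most like Flt3 by Pearson's r of log2 CPM (prior count 2). Gpr171 and Ikzf2, the other called genes of lymphoid specification, fall outside that rule. Replicate numbers only name plates.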

Additional observations from a re-analysis of the deposited data

Results flagged for a closer look

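Double mutant replicate 3 stood apart from the other 3 double mutant plates in 5 of 34 sets of member values compared within that genotype, by the gap to the nearest plate as a share of the range. Chance flags about 1 such set in 20. Ccr9 was at 139 CPM there, against 2.03 to 9.66 CPM on the other double mutant plates, and at 121 CPM in wells without erythroid UMIs, against 1.87 to 15.8. Flt3 was found in 2.44% of its wells at 1000 UMIs, against 5.88 to 6.54%. Mef2c in wells without erythroid UMIs was at 132 CPM, against 144 to 146, and was found in 10.3% of wells at 1000 UMIs, against 15.4 to 15.95%. This plate had 82 kept wells and 3 Flt3, 13 Mef2c and 16 Ccr9 UMIs, and the part of its low depth in these values was not tested.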

How the results depend on the processing

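No paired analysis was possible because replicate numbers only name plates in deposit order. Of 543 member values under alternatives other than leave-outs, 465 kept direction and call, 35 lost the call, 28 gained it and 15 changed direction.

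Members called in the double mutant against WT numbered 4, and 2 with wells thinned to 1000 UMIs, 2 without double mutant replicates 3 and 4, and 0 with read counts, with flow cell or in session 1 alone. Over single leave-outs there were 0 to 6, the fewest on leaving out the library labelled double mutant replicate 4 and the most on leaving out double mutant replicate 3, with 1 without double mutant replicate 2 and 2 without WT replicate 2 or 3. Against the Rev1 knockout the number was 4, and 2 when thinned, 0 with read counts, flow cell or without double mutant replicates 3 and 4, and 0 to 6 over leave-outs. Against Pcna K164R it was 0, and 2 by DESeq2, 5 with no filter, 1 when thinned, 1 in session 1 alone and 0 to 1 over leave-outs. With no filter it was 1 in the Rev1 knockout against WT and 5 in the interaction.

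In wells without erythroid UMIs, the double mutant against WT gave 2, and 4 by DESeq2, 0 in session 1 alone, 0 in session 3 alone and 0 to 4 over leave-outs, with 0 without WT replicate 1. Against the Rev1 knockout it gave 1, and 4 by DESeq2, 4 with no filter, 2 when thinned, 2 when wells were chosen after thinning, 0 without double mutant replicates 3 and 4 and 0 to 4 over leave-outs. Against Pcna K164R it gave 0, and 2 by DESeq2 and 3 with no filter. The interaction gave 0, and 1 by DESeq2 and 1 with no filter. With no filter the Rev1 knockout against WT gave 1. For most of these alternatives the share of all genes called is not given here.

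The Flt3 share differed by -40.07 points in unthinned wells (exact permutation p = 0.0857) and by -19.2 to -15.98 points over leave-outs, whose smallest possible p is 0.0667 or 0.1.

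None of the values that changed direction had been called. In the double mutant against WT, Ccr9 was 0.093 when thinned and Il7r 1.36 with flow cell. In wells without erythroid UMIs, chosen with 6 genes in place of 3, Ccr9 was 0.17 and Il7r 0.38, and over leave-outs Ccr9 was -1.17 to 0.12 and Il7r -1.40 to 1.06. In the Rev1 knockout against WT, Flt3 was 0.032 with read counts and -0.31 to 0.028 over leave-outs. Mef2c was -0.21 when thinned, -0.078 with read counts and -0.035 to 0.21 over leave-outs, and Notch1 was -0.12 when thinned. Without erythroid UMIs and thinned, Mef2c was -0.11 and Notch1 -0.25, Notch1 ranging from -0.014 to 0.15 over leave-outs. In Pcna K164R against WT, Notch1 was 0.0028 with read counts, 0.14 in session 1 alone, 0.14 without double mutant replicates 3 and 4, and -1.02 to 0.12 over leave-outs. Thinned and without erythroid UMIs, Mef2c was 0.064 against Pcna K164R and 0.18 in the interaction. The cause of these changes was not tested.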
